A study of Mus musculus with 6 samples.

Results

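The Hox genes were examined in primary osteosarcomas of 6 mice. Members were the genes with a mouse symbol made of Hox, a cluster letter from a to d and a paralog number. The annotation names 39 such genes, and 38 of them had a row among the 39179 genes of the deposited counts. *Hoxd4* was not analysed here. The counted genes were 11 of the Hoxa, 10 of the Hoxb, 9 of the Hoxc and 8 of the Hoxd cluster. Gene names and no measured value decided which genes were members, but the Hox genes as a set were chosen with earlier results of these data known.

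Tumors No244, No316 and No368 came from mice labelled CD44+/+; Nf2Δ2/+, and tumors No203, No279 and No364 from mice labelled CD44-/-; Nf2Δ2/+. All 6 mice thus carried 1 mutated allele of *Nf2*, the gene of the tumor suppressor merlin, on a mixed background of C57BL/6, 129/Sv and FVB. The 2 genotypes differed in *Cd44*, which encodes a receptor for hyaluronic acid. Sex, age and skeletal site of the mice and tumors are not given in the sources used here, so no level below was set against a known site. The labels name tumor tissue as the material, but their extraction text speaks of cell lines. Values of the 6 tumors are listed below in the order No244, No316 and No368 for *Cd44*+/+ and No203, No279 and No364 for *Cd44*-/-.

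Hox genes encode homeodomain transcription factors that give the parts of the embryo their position along the body axis. In each cluster the genes lie in the order of their paralog numbers. Genes with low numbers are switched on first and reach furthest to the head, and genes with high numbers are active in more posterior parts. In the limb buds, the genes from number 9 on, of the Hoxa and Hoxd clusters above all, pattern the skeleton from the shoulder or hip to the digits. Bone-forming and other mesenchymal cells of the adult keep much of the Hox pattern of the place they formed in. For the description, paralog numbers 1 to 3 are called anterior, 4 to 8 central and 9 to 13 posterior.

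Levels are CPM, counts per 1000000 of the library size after TMM scaling. Total counts ran from 18076388 to 26954142 per tumor, so that 3 counts, the smallest number taken as detectable, were 0.0990 to 0.252 CPM. *Cd44* itself was at 137.3, 243.6 and 240.3 CPM in *Cd44*+/+ and at 19.2, 15.7 and 61.8 CPM in *Cd44*-/- tumors, lower in every *Cd44*-/- tumor. The 2 *Cd44*+/+ tumors No316 and No368 differed by less than the sampling noise in 87.2% of the genes compared, against 15.7% to 24.1% in the other 14 pairs, so they enter each mean and SD as 1 sample. Some *Cd44*-/- tumors stood apart from the label of an osteosarcoma. *Sp7*, the transcription factor that defines osteoblasts, was at 192.2, 191.996 and 198.95 CPM in *Cd44*+/+ and at 333.2, 3.96 and 0.314 CPM in *Cd44*-/- tumors. *Ibsp*, the bone sialoprotein gene, was at 640.1, 1688 and 1688 CPM in *Cd44*+/+ and at 4820.2, 3.27 and 2.25 CPM in *Cd44*-/- tumors. Both markers were thus far lower in No279 and No364 than in the 4 other tumors, with *Sp7* near the floor of detection in No364, although No279 still held *Runx2* at 68.3 CPM. No364 also had 60281 CPM of the liver gene *Alb*, against 21.3 to 99.3 CPM elsewhere. The summed level of 4 Y-linked genes was 44.01 and 69.6 CPM in No279 and No364 and at most 3.28 CPM in the others. Genotype differences are therefore also given without these tumors.

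The tumors differed in how far into the posterior genes their Hox expression reached. The 16 posterior genes counted summed to 98.2, 95.9 and 97.4 CPM in *Cd44*+/+ and to 90.4, 3.86 and 0.419 CPM in *Cd44*-/- tumors. The *Cd44*+/+ tumors and the *Cd44*-/- tumor No203 were thus within a narrow range, and No279 was 23.4 times below the lowest of them. The central genes summed to 153.8, 71.7 and 74.7 CPM in *Cd44*+/+ and to 97.4, 85.9 and 8.27 CPM in *Cd44*-/- tumors, so that No279 lay within the range of the *Cd44*+/+ tumors there. The anterior genes summed to 86.1, 53.6 and 52.2 CPM in *Cd44*+/+ and to 81.8, 23.7 and 3.77 CPM in *Cd44*-/- tumors. No364 was low in all 3 classes. Its 38 Hox genes together had 238 counts, where the other tumors had between 3435 and 6800, and the summed CPM was 9.10 to 27.1 times higher in the others. Bulk RNA cannot tell fewer cells with Hox transcripts from fewer transcripts per cell.

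The share of posterior genes in the Hox counts parted the same tumors. It was 29.1% in No244, 43.4% in No316, 43.4% in No368 and 33.5% in No203. In No279 it was 3.41% (95% Wilson interval 2.85% to 4.07%), and in No364 it was 3.36%, from 8 counts (1.71% to 6.49%). Intervals cover counting error only. The lower bound of the lowest of the 4 other tumors, No244, was 27.7%, which is above the upper bounds of both. Between genotypes the share overlapped, since No203 lay between No244 and No316.

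**Figure D1:**
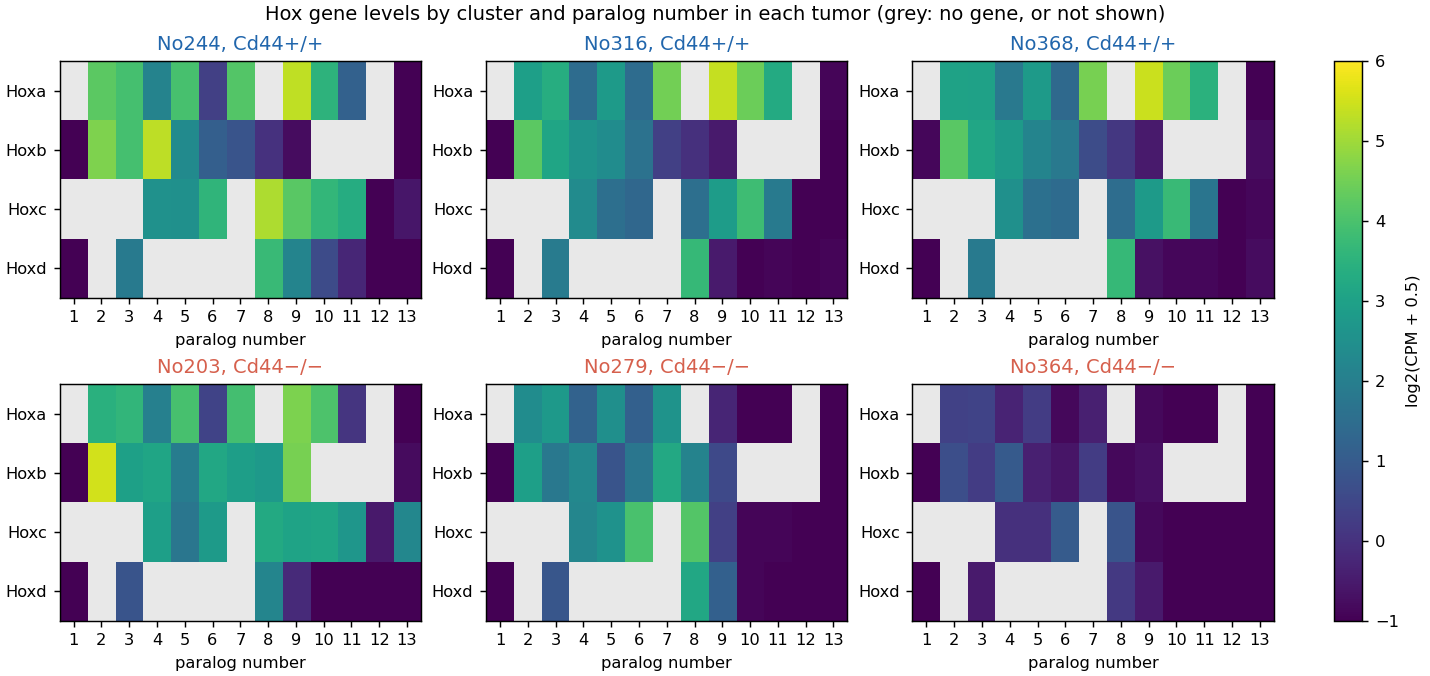
Each panel is 1 tumor, with the 4 clusters as rows, the paralog number as columns and log2(CPM + 0.5) as colour, and grey where the cluster has no such gene or it is not shown. Colour reaches paralog number 11 in the Hoxa row of the 3 *Cd44*+/+ tumors and fades after number 7 in No279, while No364 is dark throughout.

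A gene was called expressed at 1 CPM or more. By that measure 26, 24 and 25 Hox genes were expressed in the *Cd44*+/+ tumors and 26, 21 and 4 in the *Cd44*-/- tumors. All but No364 shared 17 expressed genes. Of the 38 genes, 30 were expressed in at least 1 tumor, 4 (*Hoxb2*, *Hoxb4*, *Hoxc6* and *Hoxc8*) in all 6 and 8 in none. The highest expressed number of the Hoxa cluster was 11 in each *Cd44*+/+ tumor, 10 in No203 and 7 in No279. In the Hoxc cluster it was 11 in each *Cd44*+/+ tumor, 13 in No203 and 8 in No279 and No364. In the Hoxb cluster No203 reached 9 and No279 reached 8, and the *Cd44*+/+ tumors reached 6 or 7. Hoxd expression ended at 8 in No316, No368 and No203, at 9 in No279 and at 10 in No244. No Hoxa or Hoxd gene reached 1 CPM in No364. Some limits followed the threshold. With 0.5 CPM or 3 counts in place of 1 CPM the Hoxa limit of No203 was 11, as in the *Cd44*+/+ tumors. With 3 counts the Hoxa limit of No279 was 9, and with 0.5 CPM or 3 counts its Hoxc limit was 9. The Hoxb limits moved with both in all tumors but No203, where the limit stayed at 9. In No364 the limits moved with both in all clusters but Hoxc, where the limit stayed at 8.

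The Hoxa cluster (chromosome 6 of GRCm38, 52155590 to 52260880, minus strand) was cut off after number 7 in No279. *Hoxa9*, a gene of the lower thorax and upper limb that is also active in blood progenitors, was at 39.997, 41.5 and 42.9 CPM in *Cd44*+/+ and at 24.03, 0.330 and 0.0523 CPM in *Cd44*-/- tumors. *Hoxa10*, which acts in lumbar vertebrae and the femur or humerus, was at 11.1, 21.03 and 20.9 CPM in *Cd44*+/+ and at 16.1, 0 and 0 CPM in *Cd44*-/- tumors. *Hoxa11*, needed for the bones of the forearm and lower leg, was at 1.76, 9.25 and 10.7 CPM in *Cd44*+/+ and at 0.555, 0 and 0 CPM in *Cd44*-/- tumors. All 3 genes were strong in No316 and No368, and the last of them was weaker in No244 and weaker still in No203. *Hoxa10* and *Hoxa11* had 0 counts in No279 and in No364, and *Hoxa9* had 10 and 1 counts there. Set against the floor of 3 counts per library, *Hoxa10* was at least 70.6-fold lower in both than in any other tumor. *Hoxa13*, the gene of hand, foot and hindgut, had 1 count in No316 and 0 in the other 5 tumors.

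The neighbouring *Hoxa7* was low in No364 as well but not at the floor in No279. It was at 17.1, 22.3 and 23.2 CPM in *Cd44*+/+ and at 14.4, 5.58 and 0.262 CPM in *Cd44*-/- tumors, and No279 thus kept 5.58 CPM of *Hoxa7* beside 0.330 CPM of *Hoxa9*. Further towards the anterior end, *Hoxa5*, a gene of the neck and upper rib cage, was at 15.1, 6.50 and 6.51 CPM in *Cd44*+/+ and at 15.2, 5.05 and 0.680 CPM in *Cd44*-/- tumors. *Hoxa3*, a gene of the throat and upper neck, was at 14.7, 9.84 and 7.56 CPM in *Cd44*+/+ and at 11.7, 6.24 and 0.837 CPM in *Cd44*-/- tumors. *Hoxa2*, which patterns the second pharyngeal arch, was at 18.2, 7.23 and 7.68 CPM in *Cd44*+/+ and at 10.3, 4.79 and 0.785 CPM in *Cd44*-/- tumors. In these 3 genes No203 lay within or above the range of the *Cd44*+/+ tumors and No279 lay below it by less than the spread between No244 and No316. *Hoxa4* and *Hoxa6*, genes of the neck and upper trunk, stayed at or under 3.87 CPM in every tumor.

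**Figure D2:**
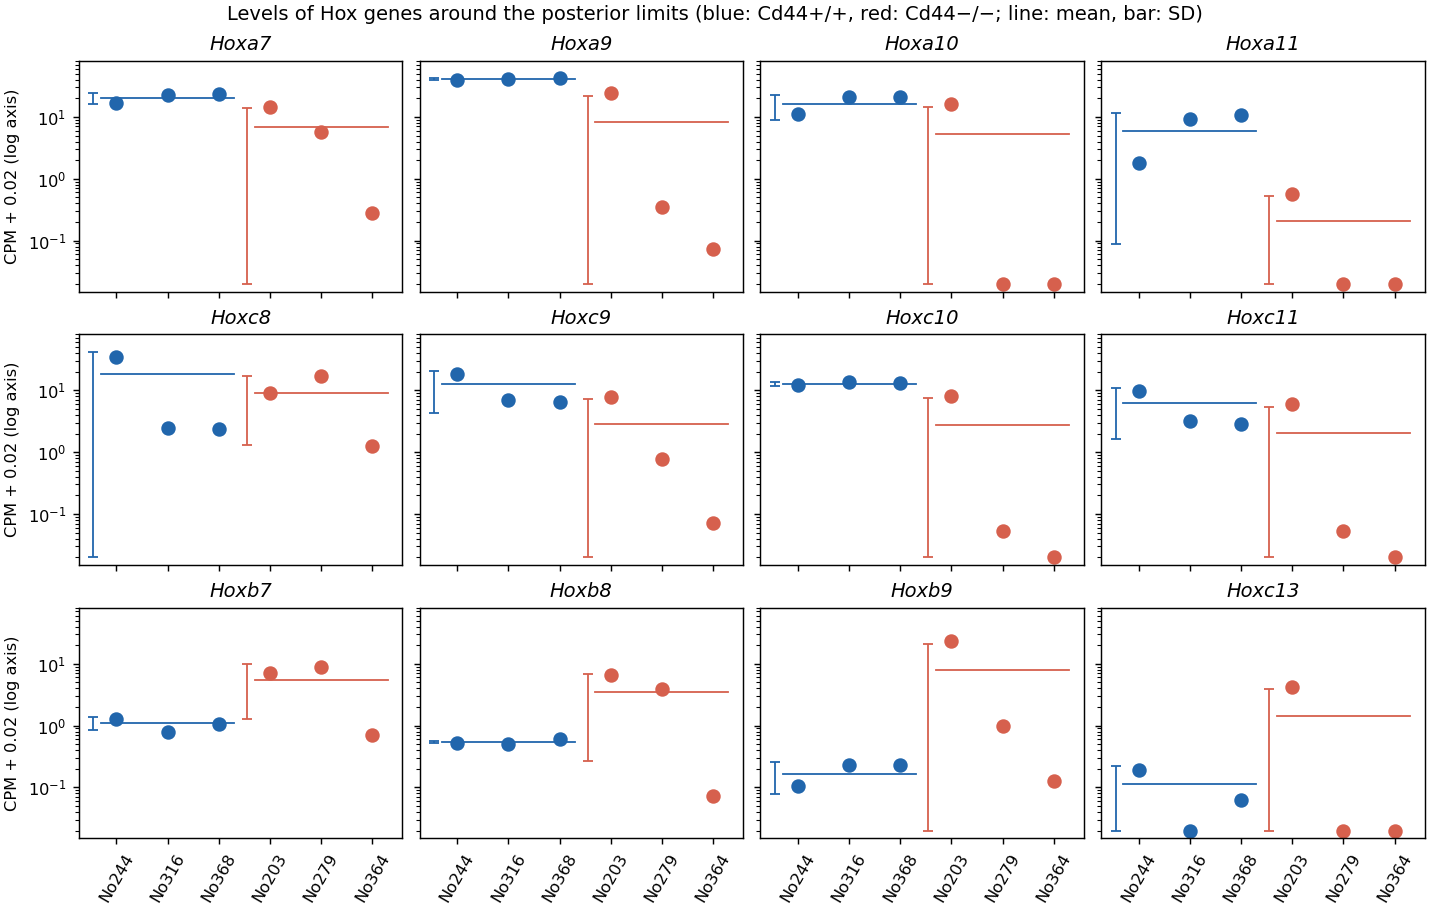
CPM of 12 Hox genes in each tumor, on a log axis after adding 0.02, with *Cd44*+/+ tumors in blue and *Cd44*-/- tumors in red. Lines are genotype means and bars at their left end are SDs (n = 2 with No316 and No368 as 1 sample, and n = 3), drawn down to 0 where the SD exceeds the mean. *Hoxa10* sits at 0 in No279 and No364, and *Hoxb9* is high only in No203 among these 6 tumors.

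The Hoxc cluster (chromosome 15, 102921103 to 103036852, plus strand) ended at the same place in No279. *Hoxc8*, a gene of the thoracic trunk, was at 34.7, 2.47 and 2.35 CPM in *Cd44*+/+ and at 9.08, 16.9 and 1.26 CPM in *Cd44*-/- tumors. *Hoxc9*, active from the lower thorax to the hindlimb, was at 18.1, 6.85 and 6.55 CPM in *Cd44*+/+ and at 7.81, 0.759 and 0.0523 CPM in *Cd44*-/- tumors. *Hoxc10*, which acts in the lumbar spine and the hindlimb, was at 12.02, 13.6 and 12.97 CPM in *Cd44*+/+ and at 8.09, 0.0330 and 0 CPM in *Cd44*-/- tumors. No279 held more *Hoxc8* than No316, No368 and No203, but had 23 counts of *Hoxc9* and 1 of *Hoxc10*. *Hoxc11*, a gene of the sacral region and hindlimb, was at 9.66, 3.16 and 2.81 CPM in *Cd44*+/+ and at 5.95, 0.0330 and 0 CPM in *Cd44*-/- tumors, with the single count of No279 under the floor. *Hoxc12* had 5 counts in No203 and 0 elsewhere. *Hoxc13*, known from hair, nails and tail, stood out in No203 with 106 counts (4.203 CPM), where No244 had 2, No368 had 1 and the other tumors had 0. The central gene *Hoxc6*, a gene of the upper thorax, was at 11.4, 2.05 and 2.23 CPM in *Cd44*+/+ and at 6.50, 15.4 and 1.52 CPM in *Cd44*-/- tumors, highest in No279 and No244. *Hoxc4* and *Hoxc5*, genes of the neck, were expressed in all tumors but No364.

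The Hoxb cluster (chromosome 11, 96194316 to 96368256, plus strand) set No203 apart. *Hoxb9*, a gene of the ribs, had 1, 6 and 5 counts in *Cd44*+/+ and 582, 29 and 2 in *Cd44*-/- tumors. In CPM it was 109.9 times higher in No203 than in the highest *Cd44*+/+ tumor and 24.1 times higher than in No279. *Hoxb9* had too few counts outside No203 to pass the low-count filter, and it is named here after its values were seen. *Hoxb8* and *Hoxb7*, genes of the trunk, were higher in No203 and No279 than in any *Cd44*+/+ tumor. *Hoxb8* was at 0.504, 0.487 and 0.588 CPM in *Cd44*+/+ and at 6.46, 3.90 and 0.0523 CPM in *Cd44*-/- tumors. *Hoxb7* was at 1.26, 0.765 and 1.05 CPM in *Cd44*+/+ and at 7.06, 8.81 and 0.680 CPM in *Cd44*-/- tumors. The *Cd44*+/+ tumors were close to each other in both genes, and No364 was below them. *Hoxb13*, known from the tail and the prostate, had 2 counts in No368 and in No203 and 0 elsewhere.

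Further towards the anterior end of the Hoxb cluster, *Hoxb2* and *Hoxb4* reached 1 CPM in every tumor. *Hoxb2*, a hindbrain gene, was at 24.5, 18.4 and 18.01 CPM in *Cd44*+/+ and at 45.4, 7.16 and 1.10 CPM in *Cd44*-/- tumors and was the strongest Hox gene of No203 per length. *Hoxb4*, a gene of the neck that blood progenitors also express, was at 39.3, 5.56 and 6.51 CPM in *Cd44*+/+ and at 8.09, 4.32 and 1.47 CPM in *Cd44*-/- tumors. No244 stood well above the other tumors in *Hoxb4*, and was also highest in *Hoxc8*. *Hoxb3*, a gene of the hindbrain and neck, was at 14.7, 8.17 and 8.31 CPM in *Cd44*+/+ and at 7.34, 3.00 and 0.680 CPM in *Cd44*-/- tumors. *Hoxb5*, a gene of the shoulder level, was at 4.62, 4.76 and 3.99 CPM in *Cd44*+/+ and at 3.33, 1.25 and 0.262 CPM in *Cd44*-/- tumors. *Hoxb6*, another trunk gene, was at 1.68, 2.64 and 3.02 CPM in *Cd44*+/+ and at 8.64, 2.84 and 0.157 CPM in *Cd44*-/- tumors. In *Hoxb3* and *Hoxb5* the genotypes did not overlap, with No203 closest to the *Cd44*+/+ tumors, while in *Hoxb6* No203 was highest. *Hoxb1*, a hindbrain gene, had 1 count in No368 and 0 elsewhere. No244 differed from the others in muscle RNA as well, with a summed level of 8 skeletal muscle genes of 15809.9 CPM against 15.96 to 687.8 CPM, and mitochondrial genes took 55.2% of its counts. The part of these in its Hox levels was not tested.

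Of the Hoxd cluster (chromosome 2, 74668310 to 74765142, plus strand) only a few genes were expressed. It lies 28.05 Mb from *Cd44* on the same chromosome. *Hoxd8*, a trunk gene, was at 12.9, 12.3 and 12.4 CPM in *Cd44*+/+ and at 4.04, 8.72 and 0.628 CPM in *Cd44*-/- tumors. *Hoxd3*, a gene of the uppermost vertebrae, was at 3.19, 3.27 and 3.11 CPM in *Cd44*+/+ and at 1.27, 1.32 and 0.209 CPM in *Cd44*-/- tumors. The *Cd44*+/+ tumors were close to each other in these genes, and every *Cd44*-/- tumor was lower. *Hoxd9*, a gene of the upper limb, had 47, 6 and 3 counts in *Cd44*+/+ and 10, 52 and 4 in *Cd44*-/- tumors, with No244 and No279 above 1 CPM. Hoxd genes from number 10 on, which shape the limb skeleton out to the digits, had few counts. *Hoxd10* had 12 counts in No244 and at most 1 in any other tumor. *Hoxd11* had 4 counts in No244 and 1 each in No316 and No368. *Hoxd13* had 1 count in No316 and 2 in No368, and *Hoxd1* and *Hoxd12* had 0 counts in all 6 tumors. At these depths a level under the floor was not detectable, which does not show that it was absent.

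Levels of different genes were compared per kilobase of exon. The posterior genes took 26.4%, 38.8% and 38.3% of the summed Hox level in the *Cd44*+/+ tumors and 31.1%, 3.45% and 3.46% in the *Cd44*-/- tumors. Their mean was 32.5 ± 8.57% (SD, n = 2) in *Cd44*+/+ and 12.7 ± 15.95% (SD, n = 3), and the SD of the *Cd44*-/- tumors was larger than their mean. Within the posterior class, number 10 led in No316 with 17.8% of the Hox level, and number 9 led in No203 with 16.7%. In No279, number 8 took 22.9% and number 6 took 21.2%, while number 10 took 0.0766%. The strongest single gene per length was *Hoxb4* in No244, *Hoxa7* in No316 and No368, *Hoxb2* in No203, and *Hoxc6* in No279 and No364.

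By cluster, Hoxa genes took 37.6%, 54.9% and 55.8% of the summed level per kilobase in *Cd44*+/+ and 36.3%, 25.99% and 27.98% in *Cd44*-/- tumors. Hoxb genes took 23.9%, 17.2% and 17.5% in *Cd44*+/+ and 39.7%, 30.004% and 35.1% in *Cd44*-/- tumors. The *Cd44*-/- tumors were thus all below the *Cd44*+/+ tumors in the Hoxa share and all above them in the Hoxb share. In the Hoxa share the gap between No203 and No244 was small beside the SD of 12.6% (n = 2) in *Cd44*+/+. The shares of No364 rest on 238 counts. Shares of a tumor add up to its whole Hox level, so those of Hoxa and Hoxb are not separate results. Hoxc genes took 19.9% to 34.7% and Hoxd genes 1.97% to 9.31%, and the genotypes overlapped in both.

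**Figure D3:**
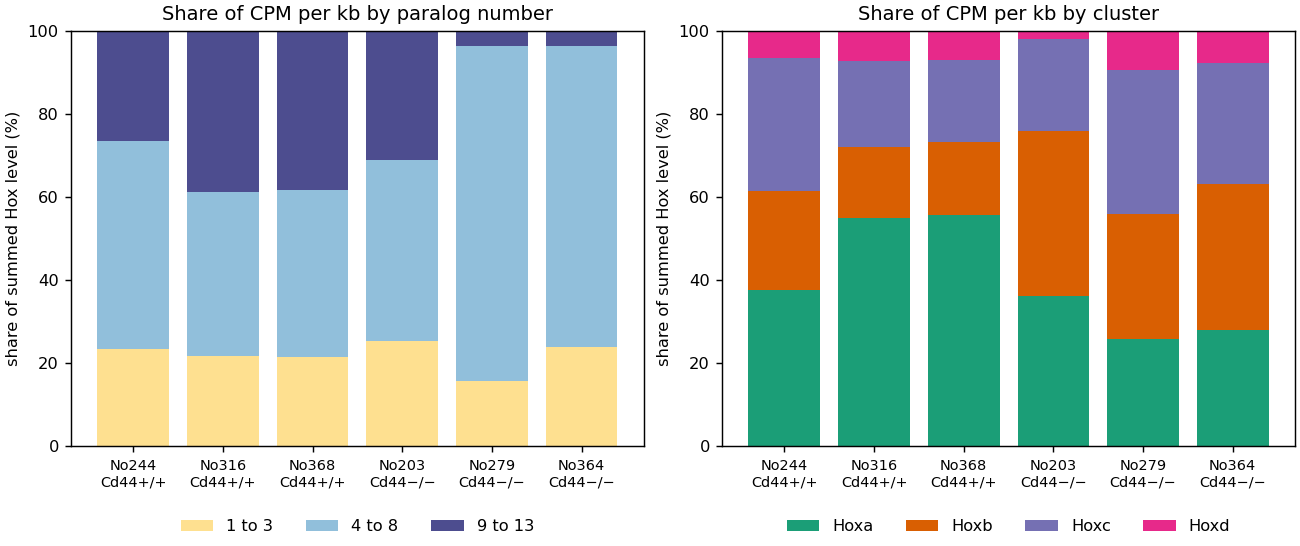
Stacked bars give the share of the summed Hox level, in CPM per kilobase of exon, taken by paralog numbers 1 to 3, 4 to 8 and 9 to 13 (left) and by each cluster (right), with 1 bar per tumor. The posterior part of the bar is 3.45% in No279 and 3.46% in No364 and at least 26.4% in the other tumors.

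The order of the 38 genes within a tumor was compared between tumors as a description, across genes that are not independent of each other and share libraries. The 38 include 12 that did not pass the low-count filter, and genes with 0 counts, 11 in No279 and 14 in No364, enter as ties. Values over all genes leave out genes under that filter, so the sets are unlike. Spearman's rho of the Hox levels was 0.935 between No279 and No364. It was 0.450 to 0.655 between No279 and each of the other 4 tumors, and 0.455 to 0.686 between No364 and these. Over all 16839 genes tested, rho was 0.741 between No279 and No364, which was below its values between No279 and No316, No368 and No203. No316 and No368 reached 0.984, and 25 of the 26 Hox genes with enough counts in that pair differed by less than the sampling noise. No203 reached 0.768, 0.735 and 0.737 with the *Cd44*+/+ tumors and 0.573 and 0.573 with the other *Cd44*-/- tumors. Over all genes tested it was also closer to the *Cd44*+/+ tumors (0.879, 0.894 and 0.892) than to No279 (0.835) and No364 (0.723).

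The difference between genotypes was tested with edgeR's quasi-likelihood method on all genes that passed its low-count filter, which 26 of the 38 Hox genes did. With Benjamini-Hochberg adjustment over the 16839 genes tested, 0 of the 26 Hox genes passed an adjusted p of 0.05, as did 0 genes over the whole table (0.0%). Unadjusted p-values under 0.05 were found for 1810 genes over the whole table and for 2 Hox genes, 1 lower and 1 higher in *Cd44*-/- tumors. Over all genes the share was 10.7%, 4.31% lower and 6.44% higher. The lower gene was *Hoxa11* (log2 fold change -5.24 ± 1.71 (SE), unadjusted p = 0.0192, adjusted p = 0.452, edgeR), with means of 5.86 ± 5.79 (SD, n = 2) and 0.185 ± 0.321 (SD, n = 3) CPM. The higher gene was *Hoxb7* (log2 fold change 2.43 ± 0.95 (SE), unadjusted p = 0.0388, adjusted p = 0.452, edgeR), with means of 1.08 ± 0.250 (SD, n = 2) and 5.52 ± 4.28 (SD, n = 3) CPM. In *Hoxb7* the genotypes still overlapped, because No364 was below all *Cd44*+/+ tumors. With No316 and No368 summed, *Hoxa11* stayed under 0.05 before adjustment (unadjusted p = 0.0445, adjusted p = 0.818, edgeR) and *Hoxb7* did not (unadjusted p = 0.105, adjusted p = 0.818, edgeR). The log2 fold change of *Hoxa11* was -4.70 without No364 and -3.70 without No279 and No364, and that of *Hoxb7* was 2.96 without No364 and 2.79 without No279 and No364.

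For 9 of the 26 tested Hox genes every *Cd44*-/- tumor lay below every *Cd44*+/+ tumor, and for 0 every *Cd44*-/- tumor lay above. Over all genes tested the shares were 9.57% below and 9.49% above, or 19.1% together. All 26 Hox genes were lowest or tied for lowest in No364, so none could lie above while that tumor was included. With No316 and No368 as 1 sample the 9 were unchanged in number, beside 10.4% of all genes below. They included *Hoxa7*, *Hoxa9*, *Hoxa11*, *Hoxb3*, *Hoxb5*, *Hoxc10*, *Hoxd3* and *Hoxd8*. Next to *Hoxa11*, the smallest unadjusted p among them was that of *Hoxd3* (log2 fold change -1.76 ± 0.76 (SE), unadjusted p = 0.0563, adjusted p = 0.462, edgeR). The largest drop after *Hoxa11* was that of *Hoxa9* (log2 fold change -2.35 ± 1.72 (SE), unadjusted p = 0.217, adjusted p = 0.613, edgeR), which was -1.76 without No364 and -0.79 without No279 and No364. That of *Hoxd3* was -1.29 without No364 and -1.32 without No279 and No364. With library size in place of TMM scaling the genotypes were apart for 3 Hox genes, beside 12.2% of all genes, and with No203 left out for 19, beside 37.9%. With No364 left out, where the share of all genes was not computed, the genotypes were apart for 11 Hox genes, 2 of them higher in *Cd44*-/- tumors. With No279 and No364 left out, an alternative chosen after seeing the data, they were apart for 15, 6 of them higher in No203, beside 55.1% of all genes. Among the *Cd44*-/- tumors, No203 was highest in 7 of the 9 genes, and No279 was highest in *Hoxd8* and, by a small margin, in *Hoxd3*.

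**Figure D4:**
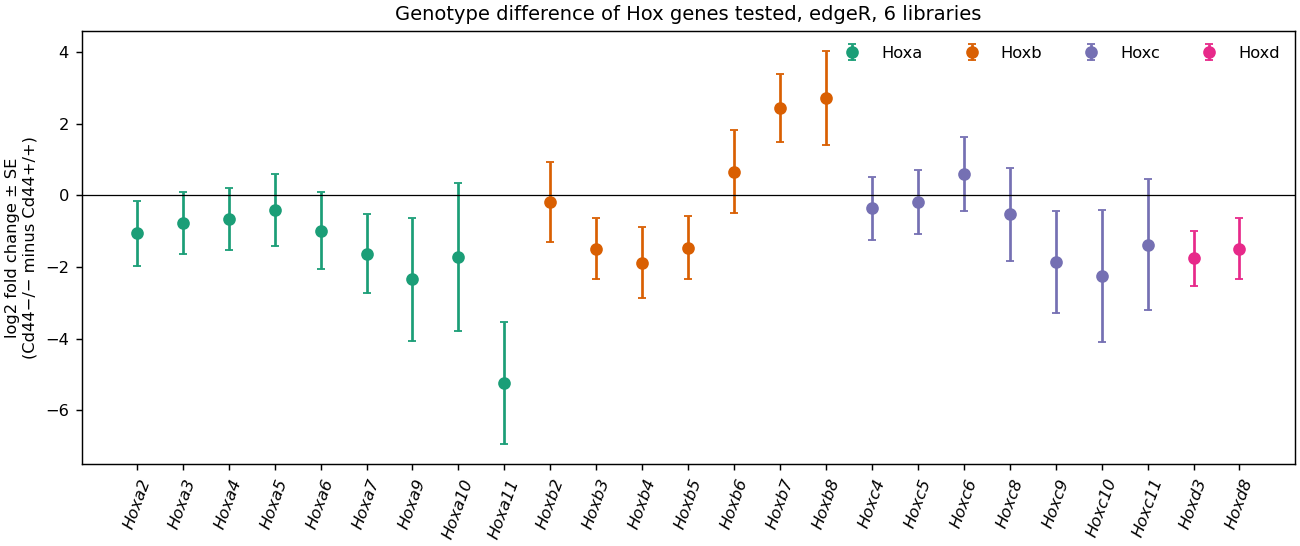
Points are the log2 fold changes (*Cd44*-/- minus *Cd44*+/+) of 25 of the Hox genes tested with edgeR on 6 libraries, ordered by cluster and paralog number, and bars are standard errors. Of these, 21 lie below 0, and the 4 above 0 are *Hoxb6*, *Hoxb7*, *Hoxb8* and *Hoxc6*.

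The median log2 fold change of the tested Hox genes was -1.22, beside 0.11 over all genes tested. It was negative for 22 of the 26, beside 44.9% of all genes. Leaving out single tumors moved the Hox median between -2.01 (without No203) and -0.49 (without No244). Without No364 the median was -0.49, with 19 of 28 genes negative, and without No279 and No364 it was -0.23, with 17 of 29 negative, where that of all genes was -0.11. In that last fit, which compares No203 alone with the *Cd44*+/+ tumors and takes its spread from them, 8 Hox genes had an unadjusted p under 0.05, 6 higher and 2 lower, beside 8.5% of all genes (4.51% higher, 3.98% lower), and 0 passed adjustment. Without No203, 10 of 27 Hox genes had an unadjusted p under 0.05, all lower, beside 17.6% of all genes (7.77% lower). Without No364, 4 of 28 had, 1 lower and 3 higher, beside 8.82% (4.2% lower, 4.62% higher). With limma-voom it was 10 of 26, all lower, beside 9.15% (5.64% lower). It was 1 of 28 with No316 and No368 summed, beside 4.26%, and 1 of 10 with at least 10 counts in every tumor, beside 11.1%. The log2 levels of the tested Hox genes had a median SD over the 5 samples of 1.76, against 0.82 for all genes tested. The SDs were 1.04 and 0.70 without No364.

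The Wald test of DESeq2, the tool named in the methods of the study, tested 28 Hox genes, gave 23 of them an adjusted p and called 2, *Hoxa11* (log2 fold change -5.29 ± 1.57, SE, adjusted p = 0.0381) and *Hoxb9* (5.54 ± 1.57, adjusted p = 0.0271), where it called 1.76% of all genes (unadjusted, 5 Hox genes and 11.1% of all genes). With No316 and No368 summed it called neither (adjusted p = 0.252 and 0.123), beside 0.591% of all genes (unadjusted, 5 Hox genes and 7.45%). Without No364 it called 4 Hox genes, adding *Hoxb7* and *Hoxb8*, beside 1.76% of all genes (unadjusted, 6 Hox genes and 9.53%). The fits with the summed pair and without No364 were chosen after seeing the data. Neither call held when the near-identical libraries counted once, and that for *Hoxb9* rests on No203, which held 582 counts of it against at most 29 in any other tumor.

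Noncoding genes lie between the Hox genes of the clusters. *Hoxa11os*, transcribed from the strand opposite to *Hoxa11*, was at 4.03, 5.49 and 5.75 CPM in *Cd44*+/+ and at 0.793, 0 and 0 CPM in *Cd44*-/- tumors. *Hotair*, between *Hoxc11* and *Hoxc12*, had 13, 7 and 6 counts in *Cd44*+/+ and 27, 0 and 0 in *Cd44*-/- tumors. *Hotairm1*, at the anterior end of the Hoxa cluster, was at 8.23, 8.45 and 7.72 CPM in *Cd44*+/+ and at 8.84, 5.05 and 0.680 CPM in *Cd44*-/- tumors. The posterior ones of these RNAs thus had 0 counts in No279 and No364, whereas the anterior one was expressed in No279. *Hoxb3os*, opposite to *Hoxb3*, was the most counted of them, at 75.7, 35.5 and 35.1 CPM in *Cd44*+/+ and at 69.1, 12.4 and 2.25 CPM in *Cd44*-/- tumors. *Evx1*, *Evx2* and *Hottip*, at the posterior ends of the Hoxa and Hoxd clusters, had 0 counts in every tumor. The strand setting of the counting is not given in the sources used here, and 22 of the 38 Hox genes overlap another annotated gene, 14 on the same and 13 on the opposite strand, so counts of such pairs may be mixed or lost. Of the 17 neighbours listed, 16 were counted and 10 tested. *Hoxa11os* was the 1 of these 10 with an unadjusted p under 0.05 (log2 fold change -4.23 ± 1.62 (SE), unadjusted p = 0.0362, adjusted p = 0.452, edgeR), lower in *Cd44*-/- tumors, beside 10.7% of all genes. With No316 and No368 summed its unadjusted p was 0.0708 (edgeR), and its log2 fold change was -3.68 without No364 and -2.68 without No279 and No364.

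Hox proteins bind DNA together with cofactors of the Pbx, Meis and Pknox families. Of the 9 cofactor genes, all tested, 0 passed adjustment and 1 had an unadjusted p under 0.05, beside 10.7% of all genes. *Meis3*, a cofactor that did not pass the test, was at 34.7, 21.4 and 22.3 CPM in *Cd44*+/+ and at 21.3, 3.37 and 1.57 CPM in *Cd44*-/- tumors, low in the same tumors as the posterior Hox genes. *Meis1*, which marks the upper part of the limb bud, was at 6.30, 2.78 and 3.19 CPM in *Cd44*+/+ and at 7.02, 0.165 and 1.78 CPM in *Cd44*-/- tumors. *Pbx2* was at 66.9, 43.7 and 43.3 CPM in *Cd44*+/+ and at 48.4, 26.7 and 24.0 CPM in *Cd44*-/- tumors, also lower in No279 and No364 than in the others. Not every cofactor was low in No279. *Meis2* was at 6.64, 6.26 and 5.50 CPM in *Cd44*+/+ and at 5.55, 11.3 and 4.55 CPM in *Cd44*-/- tumors, highest in No279. *Pknox2* was at 3.87, 0.521 and 0.714 CPM in *Cd44*+/+ and at 9.95, 5.91 and 1.05 CPM in *Cd44*-/- tumors.

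Of 18 genes that act upstream of Hox expression, 15 were tested, 0 passed adjustment and 3 had an unadjusted p under 0.05, 2 lower and 1 higher in *Cd44*-/- tumors, beside 10.7% of all genes (4.31% lower, 6.44% higher). *Kmt2a*, the methyltransferase that keeps Hox genes active, was at 53.5, 55.5 and 55.2 CPM in *Cd44*+/+ and at 32.2, 24.7 and 21.5 CPM in *Cd44*-/- tumors (log2 fold change -1.07 ± 0.30 (SE), unadjusted p = 0.0100, adjusted p = 0.452, edgeR). *Cyp26b1*, which degrades retinoic acid in the limb bud, was at 8.23, 43.2 and 44.6 CPM in *Cd44*+/+ and at 9.44, 1.91 and 3.40 CPM in *Cd44*-/- tumors (log2 fold change -2.70 ± 0.87 (SE), unadjusted p = 0.0180, adjusted p = 0.452, edgeR). *Cyp26a1*, which degrades retinoic acid in the liver among other tissues, was at 0.168, 0.521 and 0.630 CPM in *Cd44*+/+ and at 1.63, 6.37 and 81.6 CPM in *Cd44*-/- tumors, and its highest value was in No364, the tumor with the *Alb* counts (log2 fold change 6.02 ± 1.62 (SE), unadjusted p = 0.00802, adjusted p = 0.452, edgeR). Unlike edgeR, DESeq2 called *Cyp26a1* (adjusted p = 0.00149), but not without No364 (adjusted p = 0.0521), and it called none of the other 17. In edgeR the log2 fold change of *Cyp26a1* was 3.14 without No364 and 1.83 without No279 and No364, that of *Cyp26b1* was -2.49 without No364 and -1.77 without No279 and No364 and that of *Kmt2a* was -0.94 without No364 and -0.76 without No279 and No364. *Kmt2a* was lower in every *Cd44*-/- tumor, and in *Cyp26b1* No203 lay above No244. *Cdx1*, *Cdx2* and *Cdx4*, which switch on Hox genes in the embryo, were at or under 0.126 CPM. The Polycomb genes *Ezh2*, *Suz12* and *Eed*, whose products silence Hox genes, did not pass the test (unadjusted p = 0.713, 0.0948 and 0.375, edgeR).

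Genes that mark limbs were set beside the Hox genes. *Tbx5* of the forelimb and *Tbx4* and *Pitx1* of the hindlimb stayed at or under 0.504 CPM in all 6 tumors. *Shox2*, which acts in the upper limb skeleton, was at 25.3, 29.5 and 30.9 CPM in *Cd44*+/+ and at 19.9, 0.297 and 0.0523 CPM in *Cd44*-/- tumors. *Tbx2*, a repressor active in the limb bud margins, was at 129.8, 126.4 and 129.4 CPM in *Cd44*+/+ and at 42.03, 3.47 and 3.14 CPM in *Cd44*-/- tumors (log2 fold change -2.99 ± 1.07 (SE), unadjusted p = 0.0285, adjusted p = 0.452, edgeR). Both were thus lowest in No279 and No364, the tumors in which posterior Hox genes, *Sp7* and *Ibsp* were low. *Tbx3*, the remaining limb gene tested, went the other way. It was at 2.27, 15.4 and 17.1 CPM in *Cd44*+/+ and at 1.27, 26.8 and 22.4 CPM in *Cd44*-/- tumors, highest in No279 and No364. *Emx2*, not tested, was at 4.09 CPM in No279 and at most 0.523 CPM in the other tumors. Of the 10 limb genes, 3 were tested and *Tbx2* was the 1 with an unadjusted p under 0.05, beside 10.7% of all genes. Its log2 fold change was -2.49 without No364 and -1.61 without No279 and No364.

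**Figure D5:**
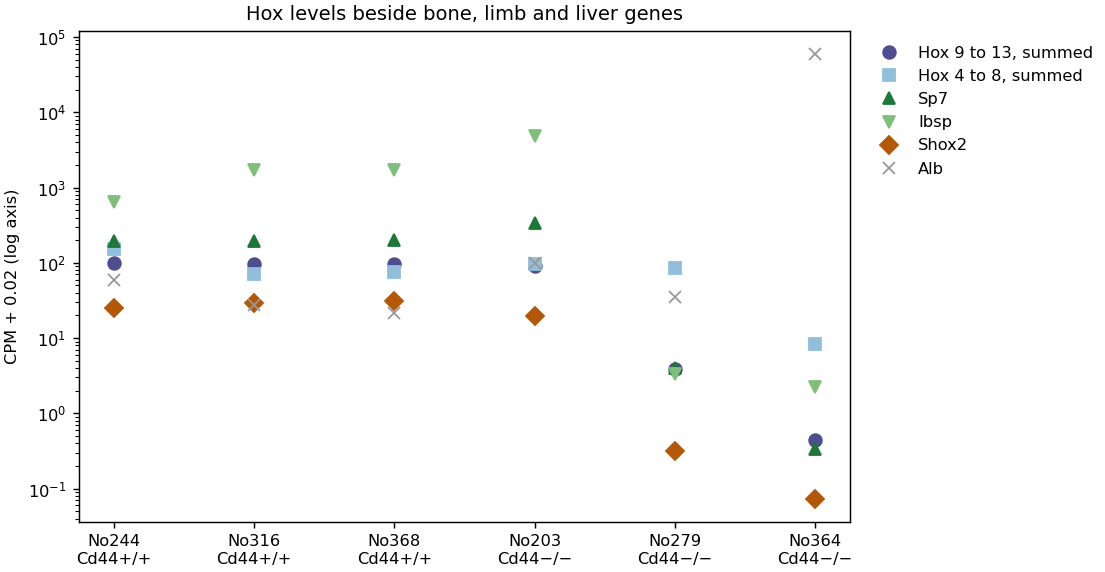
Points give, for each tumor, the summed CPM of posterior (9 to 13) and central (4 to 8) Hox genes and the CPM of *Sp7*, *Ibsp*, *Shox2* and *Alb*, on a log axis after adding 0.02. Posterior Hox genes, *Sp7*, *Ibsp* and *Shox2* are all lower in No279 and No364 than in the other 4 tumors, central Hox genes are low in No364, and *Alb* is high in No364.

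Markers of osteoblasts and of other cells also differed between the tumors. The summed level of 8 osteoblast genes was 33602, 51746 and 52746 CPM in *Cd44*+/+ and 84591, 22517 and 3689 CPM in *Cd44*-/- tumors. None of the 8 was at 0, but *Bglap*, the osteocalcin gene, had 4.79 CPM in No279 and 6.80 CPM in No364 against 269.2 to 3481 CPM in the others. The 10 hepatocyte genes summed to 110292 CPM in No364 and to 36.7 to 140.01 CPM elsewhere, and 6 epithelial genes to 1968 against 2.61 to 36.3 CPM. In No279 the chondrocyte list was highest, at 184.6 against 15.2 to 58.2 CPM, through *Acan* of the cartilage matrix at 152.9 CPM, while *Col2a1*, the defining cartilage collagen, was at 0.627 CPM. Blood cells can carry *Hoxa9* and *Hoxb4*. The 6 genes of blood progenitors summed to 80.5 to 447.1 CPM, highest in No279, the 8 neutrophil genes to 31.7 to 78.5 CPM, also highest in No279, and the 7 erythroid genes to 136.9 to 9592 CPM, highest in No244. In No279 the progenitor sum came mostly from *Cd34* (247.1 CPM) and *Spi1* (109.5 CPM), while *Kit* was at 11.1 CPM against 25.8 CPM in No316. The neutrophil sum there came mostly from *S100a8* (31.5 CPM) and *S100a9* (44.6 CPM), while *Camp* and *Elane* had 0 counts and *Ngp* and *Ltf* had 2 each. Endothelial (5 genes) and macrophage (6 genes) sums ran from 72.8 to 339.2 CPM and from 232.2 to 700.3 CPM, lowest in No364 and highest in No279. In No279 the macrophage sum came mostly from *Cd68* (310.7 CPM) and *Csf1r* (360.0 CPM). *Adgre1* and *Mrc1* were at 13.3 and 16.2 CPM there, against 55.6 and 94.1 CPM in No316. *Clec4f* (42.9 CPM) and *Marco* (3.24 CPM) were highest in No364, against the order of the sums. Of the marker genes, 9 of the 9 hepatocyte genes tested (*Alb*, *Apoa1*, *Apob*, *Cps1*, *Cyp2e1*, *Fgb*, *Serpina1c*, *Tat* and *Ttr*) were higher in *Cd44*-/- tumors at an unadjusted p under 0.05 (edgeR), as were the epithelial genes *Epcam*, *Krt8* and *Krt18*, *Acan* and the neutrophil gene *Prtn3*, while *Bglap* and the endothelial gene *Kdr* were lower, and 0 passed adjustment. The part of these cells in the Hox levels was not tested.

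The study relates CD44 to promoters through the response element of its intracellular domain, CCTGCG, and through the AP-1 element, TGACTCA or TGAGTCA. Both were searched on both strands in the RefSeq promoters of GRCm38.p6, which span 250 bases before to 50 after a start and cover 22 of the 39 Hox genes with 24 promoters. The study searched a longer stretch before the start, in the promoters of *Abcb1a* and *Abcb1b*, so the windows are unlike. Bases further than 250 before a start were not searched here. CCTGCG was found in 5 of the 24 Hox promoters (20.8%), beside 17.3% of all 32851 promoters. The AP-1 element was found in 1 of the 24 Hox promoters, beside 5.2% of all. The share for CCTGCG was thus near that of all promoters. Of the 9 Hox genes lower in every *Cd44*-/- tumor, the promoters of *Hoxa7*, *Hoxa9*, *Hoxa11*, *Hoxd3* and *Hoxd8* were among those searched, and they held neither element. As examples, CCTGCG is shown for *Hoxa3* and *Hoxc4*, which were expressed in all tumors but No364, and the AP-1 element for *Hoxd11*, the 1 Hox promoter that held it. Each is shown with 10 bases on either side, the element in capitals, read 5′ to 3′ along the gene.
Hoxa3 (chr6:52213125-52213150, minus strand, 73 bases before the start): tggctaatttCCTGCGtcctctggca
Hoxc4 (chr15:103034214-103034239, plus strand, 171 bases before the start): acttcctcttCCTGCGaaagaggggc
Hoxd11 (chr2:74679528-74679554, plus strand, 20 bases before the start): ataaatgaaaTGACTCAgaatcccttc
Other matches are not shown. The elements are matches of letters in these windows, and no binding was measured.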

How the data were processed

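Total RNA of 6 tumors was made into stranded mRNA libraries and sequenced from one end. By the study's methods and the submitters' processing notes (bcl2fastq 1.8.4, HISAT2 2.0.2, Subread 2.0.0), the authors aligned the reads to GRCm38, counted them per Ensembl gene with featureCounts and deposited raw counts, one column per tumor and without normalization. The setting for strand and for reads matching several genes is not given in the sources used here. Symbols, coordinates and exon lengths are those of GENCODE M21 on GRCm38, a later release than that used for counting. Symbols matched 37607 of 39179 identifiers.

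Levels are CPM on TMM-scaled library sizes, and levels per kilobase divide them by the union of a gene's exons. The test between genotypes used R 4.3.3 and edgeR 4.0.16 on the 6 libraries, with genotype alone in the model, filterByExpr, the quasi-likelihood F statistic and a Benjamini-Hochberg adjusted p of 0.05 as threshold. Standard errors were taken as the log2 fold change over the root of F. DESeq2 1.42.0 and limma-voom (limma 3.58.1) were alternatives, as were other scalings, filters, a hepatocyte score as covariate, the sum of No316 and No368, and each tumor left out. A further 4 fits were chosen after seeing the data. No316 and No368 were compared with binomial noise over genes whose 2 counts summed to 20 or more. The labels do not say how the tumors were sampled beyond 1 per mouse number, so p-values measure the spread between these samples. Fits that hold both No316 and No368 count these near-identical libraries as 2 samples, which understates the spread within *Cd44*+/+. With the pair summed, 4.26% of all genes had an unadjusted p under 0.05 in place of 10.7% (edgeR). The fit was tested on simulated counts. The Hox genes and gene lists were chosen with earlier results of these data known. Values in every tumor are given, by rule, for the label check *Cd44*, for the Hox genes with the 12 highest mean CPM, the 5 smallest p-values in each direction, groups that do not overlap, and paralog numbers 10 to 13, and for members of the Hox-related lists with an unadjusted p under 0.05. Such members of cell marker lists are named, and their lists summed. Other Hox genes are given by ranges or counts, apart from *Hoxb9* and *Hoxc9*, which were named after their values were seen. So were *Pbx2*, *Meis1*, *Meis2*, *Meis3*, *Pknox2*, *Shox2*, *Tbx3*, *Emx2* and the noncoding neighbours. The osteoblast genes *Alpl*, *Col1a1* and *Col1a2* were too, as were the single neutrophil, blood progenitor and macrophage markers given for No279 or No364. Results for some genes and sequences that the rule names are not reported here.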

Additional observations from a re-analysis of the deposited data

How the results depend on the processing

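Over all genes, 0 passed adjustment in edgeR and limma-voom under every alternative. DESeq2 called 419, 146 with No316 and No368 summed and 432 without No364, of which 2, 0 and 4 were Hox genes. The 2 Hox genes with an unadjusted p under 0.05 became 1 with at least 10 counts in every tumor or with No316 and No368 summed, 5 with DESeq2 (5 with that pair summed and 6 without No364), 10 with limma-voom, 8 without No279 and No364, and 1 to 10 with single tumors left out (10 without No203, 4 without No364). The 9 Hox genes whose genotypes did not overlap became 3 with library size alone, 15 without No279 and No364, and 9 to 19 with single tumors left out (19 without No203). Of the log2 fold changes named, those of *Hoxb6* and *Hoxc6* turned sign, *Hoxb6* from 0.66 to -0.47 with limma-voom and from -0.74 (without No203) to 1.23 (without No364) with single tumors left out, *Hoxc6* from 0.59 to between -0.36 (without No279) and 1.86 (without No244). The median log2 fold change of the Hox genes, -1.22, was -0.49 with the hepatocyte covariate and -0.65 with at least 10 counts in every tumor. The cause was not tested. No paired analysis was possible because the tumors of the 2 genotypes share no replicate number.

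The number of expressed Hox genes in No364 was 4 at 1 CPM, 10 at 0.5 CPM, 19 at 3 counts and 2 with library size alone. At 0.5 CPM the highest Hoxb number was 7 in No316 and 8 in both No244 and No368, and in No364 Hoxa reached 5, Hoxb reached 7 and Hoxd held number 8 alone. At 3 counts the highest Hoxb number was 8 in No244 and 9 in No316 and No368, the highest Hoxd number was 9 in No203, and in No364 Hoxa and Hoxb reached 7, Hoxc began at 4 and Hoxd ran from 3 to 9. With library size alone No244 ended at 10 in Hoxa and 5 in Hoxb, No316 ended at 7 in Hoxb, and No364 began at 4 in Hoxb. With mitochondrial genes left out of library sizes, Hoxa reached 3 in No364. In No279 the Hoxa limit of 7 became 9 at 3 counts and the Hoxc limit of 8 became 9 at 0.5 CPM or 3 counts, while both held under the 3 other scalings. The Hoxb limit of No279 became 9 at 0.5 CPM, at 3 counts, with library size alone and with mitochondrial genes left out. In No203 the Hoxa limit of 10 became 11 at 0.5 CPM or 3 counts. With the longest transcript as length the Hoxd share was 5.90% in No244, 6.28% in No368 and 6.42% in No316, and without length the anterior share was 25.5% in No244, 24.2% in No316, 23.3% in No368 and 30.3% in No364. In the other shares the change was within 1 SD of the tumors of that genotype. The posterior genes of No364 had 8 counts in all, although its total count of 26954142 was the highest of all tumors.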
